A study of Mus musculus with 8 samples.

Results

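The genes described here are 44 germline and meiosis genes, chosen by name for their roles in germ cells, with earlier results of these data known. Each name matched 1 of the 55401 genes in the count table, and all 44 genes had at least 10 counts summed over the 8 libraries. Of these, 43 had enough counts to be tested, among 17125 genes tested in all. The exception was Spo11, which encodes the enzyme that makes the double-strand breaks of meiosis and had 15 counts in total. The 44 genes fall into 7 roles, which are the synaptonemal complex and chromosome axis, meiotic cohesin, meiotic recombination, the piRNA pathway and germ granule, germ cell fate and meiotic entry, testis transcription and chromatin, and other testis proteins.

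In mammals, germ cells pair and recombine their chromosomes in meiosis, along a protein axis that the synaptonemal complex joins between homologues. They also make piRNAs, small RNAs that guide the silencing of transposons and work with Piwi and Tudor domain proteins in granules of the cytoplasm. Mouse embryonic stem cells (ESCs), which derive from the early embryo and not from germ cells, keep many such genes repressed. The best known repressors are PRC1.6, a Polycomb complex that holds E2F6, MGA, MAX and PCGF6, together with methylation of DNA and of lysine 9 of histone H3. E2F6 binds promoters at a core of TCCCGC, and MGA with MAX binds CACGTG, an E-box. Zfp462 encodes a zinc finger protein.

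RNA was sequenced from R1 cells, a mouse ESC line, in 4 groups of 2 libraries each. They were Zfp462 knockout embryoid bodies (EBs) and control EBs, both taken after 3 days of differentiation in suspension, and Zfp462 knockout ESCs and control ESCs, both grown in serum with the cytokine LIF. The labels call the controls wild type. They describe the knockouts as stable lines but do not give the edited exon, the number of clones, or whether a group's libraries are separate cultures, so a p-value here speaks of the spread among the libraries at hand, possibly technical. The study asked what Zfp462 does in self-renewal and in differentiation.

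Zfp462 RNA checks the labels. It stood at 104 and 107 CPM (counts scaled to a fixed library total) in knockout ESCs, against 183 and 197 CPM in control ESCs. In knockout EBs it stood at 102.0 and 102.5 CPM, against 153.5 and 130.3 CPM in control EBs. Every knockout library was below every control library, at a log2 fold change with its SE of -0.85 ± 0.10 in ESCs and -0.47 ± 0.10 in EBs (adjusted p = 0.000366 and 0.0207, edgeR's quasi-likelihood method), so the RNA was reduced and not absent. Library totals ranged from 12119763 to 16228426 counts. At those totals, without the scaling factors used for the CPM values, 3 counts correspond to between 0.185 and 0.248 CPM, which covers counting error only. Knockout ESC replicate 2 stood apart in GC content: the tenth of genes with the highest GC content lay at a median of -0.54 in it (log2, against the mean of all libraries), and between -0.06 and 0.17 in the other 7 libraries. Knockout EB replicate 1 stood apart in 8 markers of adult liver, whose levels summed to 1750 CPM in it and to between 2.91 and 21.6 CPM in the other 7 libraries. Counts of the knockout comparisons in ESCs and in EBs are given with and without these 2 libraries. The counts for knockout EBs against knockout ESCs include both.

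The germline and meiosis genes were detected broadly, mostly at low levels. Their mean levels had a median of 9.87 CPM in knockout EBs, 11.3 CPM in control EBs, 11.1 CPM in ESCs with the knockout and 13.6 CPM in control ESCs. At least 10 CPM was reached by 24 genes in knockout ESCs and by 24 in control ESCs, and 4 genes in knockout ESCs and 2 in control ESCs were below 1 CPM. The levels of all 44 genes summed to 823 and 924 CPM in knockout ESCs, against 967 and 966 CPM in control ESCs. In EBs the sums were 891 and 878 CPM with the knockout, against 940 and 887 CPM in controls. The groups did not overlap in ESCs and overlapped in EBs.

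Per kilobase of exon, the order at the top was alike in the 4 groups. Tex19.1, a gene of placental mammals that works in germ cells and placenta and keeps transposons in check, ranked first of the 44 in each group, with 102.5 CPM per kb in knockout EBs, 65.2 CPM per kb in control EBs, 67.3 CPM per kb in knockout ESCs and 42.2 CPM per kb in control ESCs. Syce2, a protein of the central element of the synaptonemal complex, ranked second in each group, with 38.4, 47.2, 29.4 and 33.2 CPM per kb in the same order of groups. Spo11 averaged 0.113 CPM in knockout EBs, 0.275 CPM in control EBs, 0.146 CPM in ESCs with the knockout and 0.0407 CPM in control ESCs, near or under the level of 3 counts. Per kilobase it ranked last in each group but control EBs, where Msh4, which stabilises crossover intermediates, was lower at 0.0446 CPM per kb. Genes of one pathway spanned a wide range of levels: of the piRNA genes in control ESCs, Tdrd12 had 16.2 CPM per kb and Asz1, which anchors the pathway at mitochondria, had 0.227 CPM per kb.

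Defining markers of mature germ cells were at or near 0 for spermatids and low for oocytes. A list of 8 spermatid markers, protamines among them, summed to between 0.896 and 2.98 CPM per library, with Prm2 at 0 counts throughout. Of these, 1 was tested and it was not called in either knockout comparison. A list of 8 oocyte markers summed to between 5.65 and 9.92 CPM, most of it from Zp3, and neither of the 2 tested was called, although Gdf9 had an unadjusted p below 0.05 in ESCs. Sertoli and granulosa cell markers, of which 3 of 8 were tested, were represented by Gata4 and Dmrt1, both also expressed outside the gonad. The third tested gene was not called at either stage, and the median log2 fold change of the 3 was 0.24 in ESCs and -0.68 in EBs. Gata4 was higher (log2 0.89 in knockout EBs and 1.85 in knockout ESCs, adjusted p = 0.0132 and 0.000108) and Dmrt1 lower (-0.68 and -1.22, adjusted p = 0.0295 and 0.000661), while Amh, Fshr and Sox9 stayed under 1 CPM. In bulk samples such as these, fewer cells of a type and less RNA per cell cannot be told apart.

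Promoter sequence was available for 37 of the 44 genes, in 45 windows of 300 bases in RefSeq on GRCm38.p6, each from 250 bases before to 50 bases after an annotated start. The core TCCCGC, read on both strands, was in a window of 15 of the 37 genes (40.5%), against 28.4% of 17492 protein-coding genes with windows and 39.4% of the 11133 of them that were tested here. CACGTG was in a window of 15 genes as well (40.5%), against 8.91% and 11.5% of those sets. Both motifs were in windows of 8 genes (21.6%), against 3.57% and 5.09%. No match of one motif overlapped a match of the other. The TCCCGC share of the germline genes was thus close to that of all tested protein-coding genes, and the CACGTG share was above it. The 250 bases before the start are shown for 3 genes whose knockout calls come first below and for 2 germ cell genes that hold both motifs, in the gene's own direction, with TCCCGC (or its reverse complement) and CACGTG in capitals.
Tex19.1: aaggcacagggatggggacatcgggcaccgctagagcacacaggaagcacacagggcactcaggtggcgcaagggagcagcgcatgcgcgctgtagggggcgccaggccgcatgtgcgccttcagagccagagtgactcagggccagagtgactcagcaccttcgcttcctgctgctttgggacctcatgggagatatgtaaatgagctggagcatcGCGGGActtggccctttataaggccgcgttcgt
Tdrd12: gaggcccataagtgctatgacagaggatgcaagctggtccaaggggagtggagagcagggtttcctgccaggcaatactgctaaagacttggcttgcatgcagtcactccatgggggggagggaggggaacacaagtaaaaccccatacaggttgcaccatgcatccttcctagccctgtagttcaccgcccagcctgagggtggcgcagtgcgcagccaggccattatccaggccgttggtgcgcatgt
Tex14: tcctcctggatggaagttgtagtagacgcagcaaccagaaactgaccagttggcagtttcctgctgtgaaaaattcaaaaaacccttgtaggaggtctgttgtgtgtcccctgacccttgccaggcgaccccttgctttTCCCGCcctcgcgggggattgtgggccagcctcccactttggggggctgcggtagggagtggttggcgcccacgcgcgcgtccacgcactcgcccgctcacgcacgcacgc
Sycp3: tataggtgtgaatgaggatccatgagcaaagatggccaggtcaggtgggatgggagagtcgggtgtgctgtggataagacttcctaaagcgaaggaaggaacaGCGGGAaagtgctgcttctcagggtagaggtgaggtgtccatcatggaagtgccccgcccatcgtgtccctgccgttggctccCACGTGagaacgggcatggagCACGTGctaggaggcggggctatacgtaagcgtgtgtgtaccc
Mael: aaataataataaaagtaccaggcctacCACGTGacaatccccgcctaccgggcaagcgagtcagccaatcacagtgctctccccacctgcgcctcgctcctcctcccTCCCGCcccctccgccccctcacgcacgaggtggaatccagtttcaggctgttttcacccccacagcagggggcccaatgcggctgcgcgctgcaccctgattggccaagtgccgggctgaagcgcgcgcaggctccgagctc
These stretches lie at chr11:121145893-121146142 on the plus strand for Tex19.1, chr7:35537745-35537994 on the minus strand for Tdrd12, chr11:87404815-87405064 on the plus strand for Tex14, chr10:88459337-88459586 on the plus strand for Sycp3 and chr1:166238745-166238994 on the minus strand for Mael. Counted from the annotated start, TCCCGC begins 33 bases before it in Tex19.1 and 111 bases before it in Tex14, and Tdrd12 has neither motif in this window. Sycp3 has TCCCGC 147 bases before the start and CACGTG 64 and 43 bases before it. Mael has CACGTG 223 bases and TCCCGC 143 bases before the start, and a further TCCCGC 11 bases past it that is not shown.

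The first comparison asked what the knockout did to these genes in ESCs. The genes moved in both directions: 7 of the 43 tested fell and 3 rose. Those that fell were Tdrd12, Tex14, Meiob, Nanos3, Sohlh2, Dmc1 and Stra8, and those that rose were Tex19.1, Dpep3 and Tex15. The log2 fold change was most negative for Nanos3. A gene is called where its adjusted p is below 0.05 by edgeR's quasi-likelihood test, adjusted over all genes by the Benjamini-Hochberg method. The 10 calls make 23.3% of the genes tested, where 14.5% of all genes were called, and the 7 that fell make 16.3%, where 6.2% of all genes fell. Without knockout ESC replicate 1 this gap was small: 7 genes were lower (16.3%), where 15.2% of all genes were lower. The 3 that rose make 6.98%, where 8.3% of all genes rose. The median log2 fold change of the 43 genes was -0.18, against -0.03 for all genes.

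Tdrd12, a Tudor domain protein of piRNA biogenesis (ENSMUSG00000030491.16, chromosome 7 from 35469098 to 35537745 on the minus strand, mm10), had 31.9 and 35.2 CPM in knockout ESCs, against 73.5 and 67.2 CPM in control ESCs. Both knockout libraries lay far below both control libraries, at a log2 fold change of -1.07 ± 0.11 (adjusted p = 0.000148). Tex14, which encodes a protein of the bridges that join dividing germ cells (ENSMUSG00000010342.16, chromosome 11 from 87405065 to 87555823 on the plus strand), had 46.9 and 51.2 CPM in knockout ESCs, against 85.5 and 95.1 CPM in control ESCs. Its log2 fold change was -0.88 ± 0.11 (adjusted p = 0.000487). These 2 genes stayed called in every alternative fit that kept both libraries of each group. Over all 17 alternative fits the log2 fold change ran from -1.15 to -1.01 for Tdrd12 and from -1.0 to -0.81 for Tex14. At 0.543 of the control level, Tex14 does not pass a 2-fold minimum.

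Among recombination genes, Meiob and Dmc1 fell and Tex15 rose. Meiob, which binds single-stranded DNA in meiosis, had 2.70 and 4.37 CPM in knockout ESCs, against 9.28 and 8.60 CPM in control ESCs (log2 -1.34 ± 0.30, adjusted p = 0.0131). Dmc1, the meiotic strand exchange recombinase, had 8.75 and 9.90 CPM with the knockout, against 13.8 and 15.2 CPM in controls (log2 -0.63 ± 0.18, adjusted p = 0.0387). Neither gene's groups overlapped. Tex15, needed for recombination and for piRNA-directed silencing in the testis, had 30.3 and 38.6 CPM with the knockout, against 25.8 and 22.8 CPM in controls (log2 0.51 ± 0.15, adjusted p = 0.047). Its groups did not overlap either, but the knockout libraries differed from each other more than the control libraries did. The other 6 tested genes of recombination were not called, with log2 fold changes from -0.72 for Mei1 to 0.58 for Msh5.

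Of the 5 genes of germ cell fate and meiotic entry, 3 fell. Nanos3, an RNA-binding protein that primordial germ cells need to survive, had 0.729 and 0.946 CPM in knockout ESCs, against 3.91 and 3.99 CPM in control ESCs, a log2 fold change of -2.23 ± 0.56 (adjusted p = 0.0245). Stra8, induced by retinoic acid at meiotic entry, had 0.875 and 0.728 CPM with the knockout, against 1.79 and 3.07 CPM in controls (log2 -1.60 ± 0.47, adjusted p = 0.0437). Both fell to the level of about 10 counts in a library. Sohlh2, a transcription factor of young germ cells, stood higher, with 21.9 and 26.1 CPM in knockout ESCs, against 32.5 and 35.0 CPM in control ESCs (log2 -0.49 ± 0.13, adjusted p = 0.0285). Dazl, an RNA-binding protein that licenses germ cell development, was not called, with 32.5 and 42.7 CPM in knockout ESCs, against 26.7 and 27.9 CPM in control ESCs (log2 0.46 ± 0.16, adjusted p = 0.0804). Dnd1, which protects germ cell RNAs, had a log2 fold change of -0.37 and was not called.

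Of the 13 piRNA and germ granule genes, Tex19.1 rose, Tdrd12 fell and 11 were not called. Tex19.1 (ENSMUSG00000039329.8, chromosome 11 from 121146143 to 121148319 on the plus strand) had 115 and 137 CPM in knockout ESCs, against 79.6 and 78.4 CPM in control ESCs, a log2 fold change of 0.67 ± 0.11 (adjusted p = 0.00303). Its near copy Tex19.2 had 3.86 and 4.29 CPM with the knockout, against 1.87 and 2.58 CPM in controls, and was not called (log2 0.86, adjusted p = 0.0757). The sources used here do not say how reads matching both copies were counted, so the split between them is uncertain. Ddx4, the helicase also known as Vasa and a hallmark of germ cells, had 19.5 and 19.6 CPM with the knockout, against 17.4 and 17.4 CPM in controls, and was not called (log2 0.17 ± 0.14, adjusted p = 0.475). Mael, which acts in transposon silencing, had 15.0 and 18.4 CPM with the knockout, against 18.6 and 14.3 CPM in controls, and its groups overlapped (log2 0.03 ± 0.18, adjusted p = 0.934). The others ranged in log2 fold change from -0.71 for Tdrd5 to 1.29 for Asz1, whose counts were low.

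The genes of the chromosome axis and of meiotic cohesin were not called in ESCs, although Sycp2 and Stag3 had an unadjusted p below 0.05. Their log2 fold changes ran from -0.87 for Sycp2 to 0.34 for Sycp1 over 7 axis genes, and from -0.32 to -0.13 over the 3 cohesin genes. Sycp3, a protein of the lateral element, had 3.65 and 3.42 CPM in knockout ESCs, against 4.64 and 5.77 CPM in control ESCs (log2 -0.56 ± 0.26, adjusted p = 0.184). Exons of Sycp3 overlap those of Chpt1 on the other strand over 660 bases, and the sources used here do not say whether strand was used in counting, so reads of the 2 genes may not be told apart. Rec8, the meiotic kleisin subunit of cohesin, had 23.2 and 14.3 CPM with the knockout, against 25.1 and 21.4 CPM in controls, and the groups overlapped (log2 -0.31 ± 0.21, adjusted p = 0.388). Of the other testis proteins, Dpep3, a membrane dipeptidase, rose to 5.32 and 6.55 CPM in knockout ESCs, against 2.85 and 2.21 CPM in control ESCs (log2 1.24 ± 0.29, adjusted p = 0.0162). Dpep3 likewise shares 119 bases of exon with an antisense gene, and so do Msh4, Zcwpw1, Tdrd5 and Dnd1, over 125 to 468 bases. Tex101, a sperm surface protein, and Slc25a31, a mitochondrial ADP/ATP carrier of the testis, were not called, nor were Brdt, a bromodomain protein, and Taf7l, a variant TFIID subunit.

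**Figure D1:**
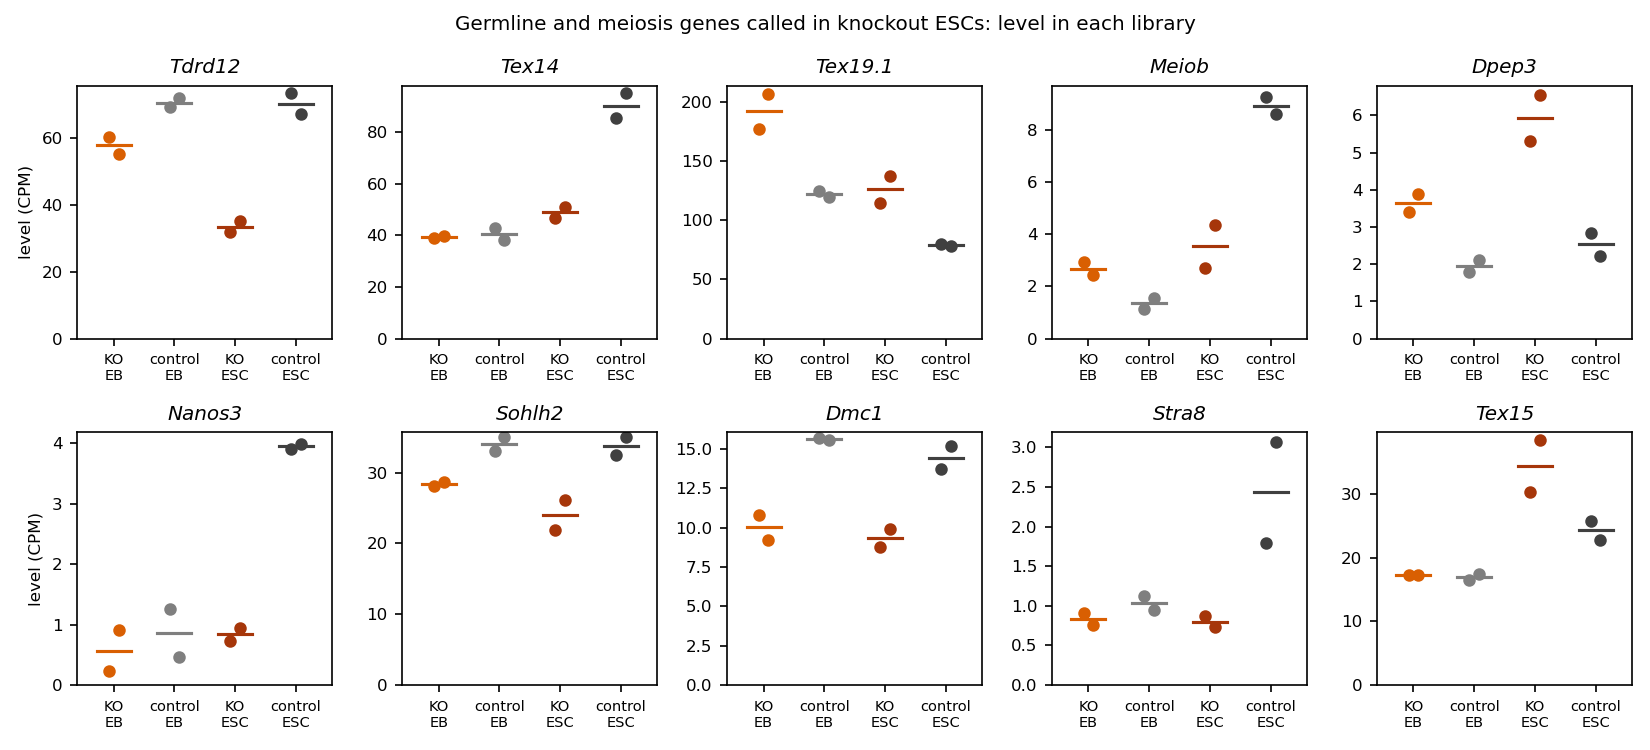
Level in CPM (linear axis from 0) in each of the 8 libraries for the 10 germline and meiosis genes called in knockout ESCs; points are libraries, lines are group means, and the groups run from knockout EB to control ESC. In the 2 ESC groups the knockout points lie below both control points for 7 genes, Tdrd12 and Tex14 among them, and above both for Tex19.1, Dpep3 and Tex15.

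The libraries limit how far the ESC calls go. Without knockout ESC replicate 1, 11 genes were called, 4 higher and 7 lower, where 10.7% of all genes were higher and 15.2% lower: Dmc1, Nanos3 and Stra8 were no longer called, and Dazl (higher), Stag3, Rec8 and Dnd1 (lower) were. Nanos3 was not called without any 1 of the 4 ESC libraries, with adjusted p of 0.0531 to 0.195. Without control ESC replicate 1, or without control ESC replicate 2, only Tdrd12 and Tex14 were called, 2 genes in place of 10, while 1.72% and 1.48% of all genes were lower and 2.93% and 2.64% higher. Dmc1, Stra8, Sohlh2 and Tex15 were not called when any 1 of the 4 EB libraries was dropped, which changes the shared estimate of spread and the genes that pass the filter, but not the ESC libraries compared. Without knockout ESC replicate 2, the one with the GC trend, 8 were called, 1 higher and 7 lower (9.51% and 10.2% of all genes): Tex15 had a log2 fold change of 0.32 there (adjusted p = 0.142) and Dpep3 of 1.07 (adjusted p = 0.0532), Nanos3 and Stra8 were not called either, and Stag3 and Rnf17 were called lower. With both doubtful libraries left out, 9 were called, 1 higher and 8 lower, where 10.6% of all genes were higher and 9.27% lower. With the GC trend removed 15 were called, 4 higher and 11 lower, where 10.3% of all genes were higher and 14.2% lower. Counting libraries only, 12 genes had both knockout ESC libraries above both control ESC libraries (27.9%, against 25.1% of all genes) and 18 had both below (41.9%, against 27.5%).

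The second comparison asked the same in day 3 EBs. Tex19.1 was again higher, and it was the 1 gene of 43 that was called, which is 2.33%, where 6.8% of all genes were called, 4.75% higher and 2.04% lower. In knockout EBs Tex19.1 had 177 and 207 CPM, against 125 and 119 CPM in control EBs, a log2 fold change of 0.65 ± 0.11 (adjusted p = 0.00709). Both knockout libraries lay above both controls. Tex19.2 had 9.41 and 7.99 CPM, against 6.76 and 5.02 CPM in controls (log2 0.56, adjusted p = 0.244). Tex19.1 was no longer called when knockout EB replicate 2 was dropped (adjusted p = 0.0683), nor when either control EB library was (0.101 for replicate 1, 0.0903 for replicate 2), and the call held without knockout EB replicate 1, the library with liver transcripts.

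The other 42 genes tested were not called in EBs. Over all 43, with Tex19.1, more genes lay below control than above it. Both knockout EB libraries were below both control EB libraries for 17 genes (39.5%, against 29.4% of all genes) and above both for 6 (14%, against 30% of all genes). The median log2 fold change was -0.14, against 0.0 for all genes, and 14 of the 43 had an unadjusted p below 0.05. Dmc1 was the nearest to a call, with 10.8 and 9.21 CPM in knockout EBs, against 15.7 and 15.6 CPM in control EBs (log2 -0.64 ± 0.18, adjusted p = 0.0583). Mael had 20.3 and 17.4 CPM with the knockout, against 26.3 and 28.7 CPM in controls (log2 -0.54 ± 0.18, adjusted p = 0.0988).

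Named genes of each role illustrate the range in EBs. Ddx4 had 22.9 and 20.7 CPM in knockout EBs, against 20.5 and 20.4 CPM in control EBs (log2 0.09 ± 0.14, adjusted p = 0.753). Dazl had 24.32 and 21 CPM, against 20.4 and 23.6 CPM in controls, with overlapping groups (log2 0.04 ± 0.16, adjusted p = 0.913). Stra8 had 0.904 and 0.761 CPM, against 1.13 and 0.941 CPM in controls (log2 -0.31 ± 0.50, adjusted p = 0.774), so its level in control EBs was already near that of knockout ESCs. Sycp3 had 8.21 and 11.6 CPM, against 8.29 and 7.76 CPM in controls (log2 0.30 ± 0.24, adjusted p = 0.519). Rec8 had 22.1 and 18.6 CPM, against 27.2 and 26.3 CPM in controls, with both knockout libraries lower (log2 -0.40 ± 0.21, adjusted p = 0.315).

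The number of genes called in EBs also depended on the fit. Once the dependence of each library on GC content was taken out, 13 genes were called: Tex19.1 was higher and 12 were lower, namely Syce1, Syce2, Hormad1, Rec8, Dmc1, Tex11, Zcwpw1, Mael, Fkbp6, Tdrd1, Tdrd12 and Sohlh2. That is 27.9% lower, where 13.1% of all genes were lower in the same fit, and 2.33% higher, where 6.7% of all genes were higher. Without either knockout ESC library, which are not among the libraries compared here but enter the shared spread and the filter, 9 genes were called: Meiob and Tex19.1 were higher, and Syce2, Hormad1, Dmc1, Mael, Fkbp6, Tdrd1 and Tdrd12 were lower. Those 7 make 16.3%, where 7.69% of all genes were lower and 9.41% higher without knockout ESC replicate 1, and 8.04% lower and 9.1% higher without replicate 2. With both doubtful libraries left out, 6 were called, 1 higher and 5 lower, where 5.96% of all genes were higher and 4.8% lower. Without control EB replicate 1 or knockout EB replicate 2 edgeR called 0, where it called 1.07% and 3.06% of all genes higher and 0.219% and 0.429% lower. Without control EB replicate 2 the 1 call was Fkbp6, lower, where 1.66% of all genes were higher and 0.402% lower. Of these genes, Fkbp6, a chaperone partner in piRNA processing, had 7.0 and 6.09 CPM in knockout EBs, against 14.65 and 8.63 CPM in control EBs. Tdrd1, a Tudor scaffold of the germ granule, had 3.39 and 3.80 CPM, against 6.50 and 6.74 CPM in controls. Hormad1, which marks unsynapsed axes, had 20.3 and 19.18 CPM, against 32.0 and 23.8 CPM in controls.

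**Figure D2:**
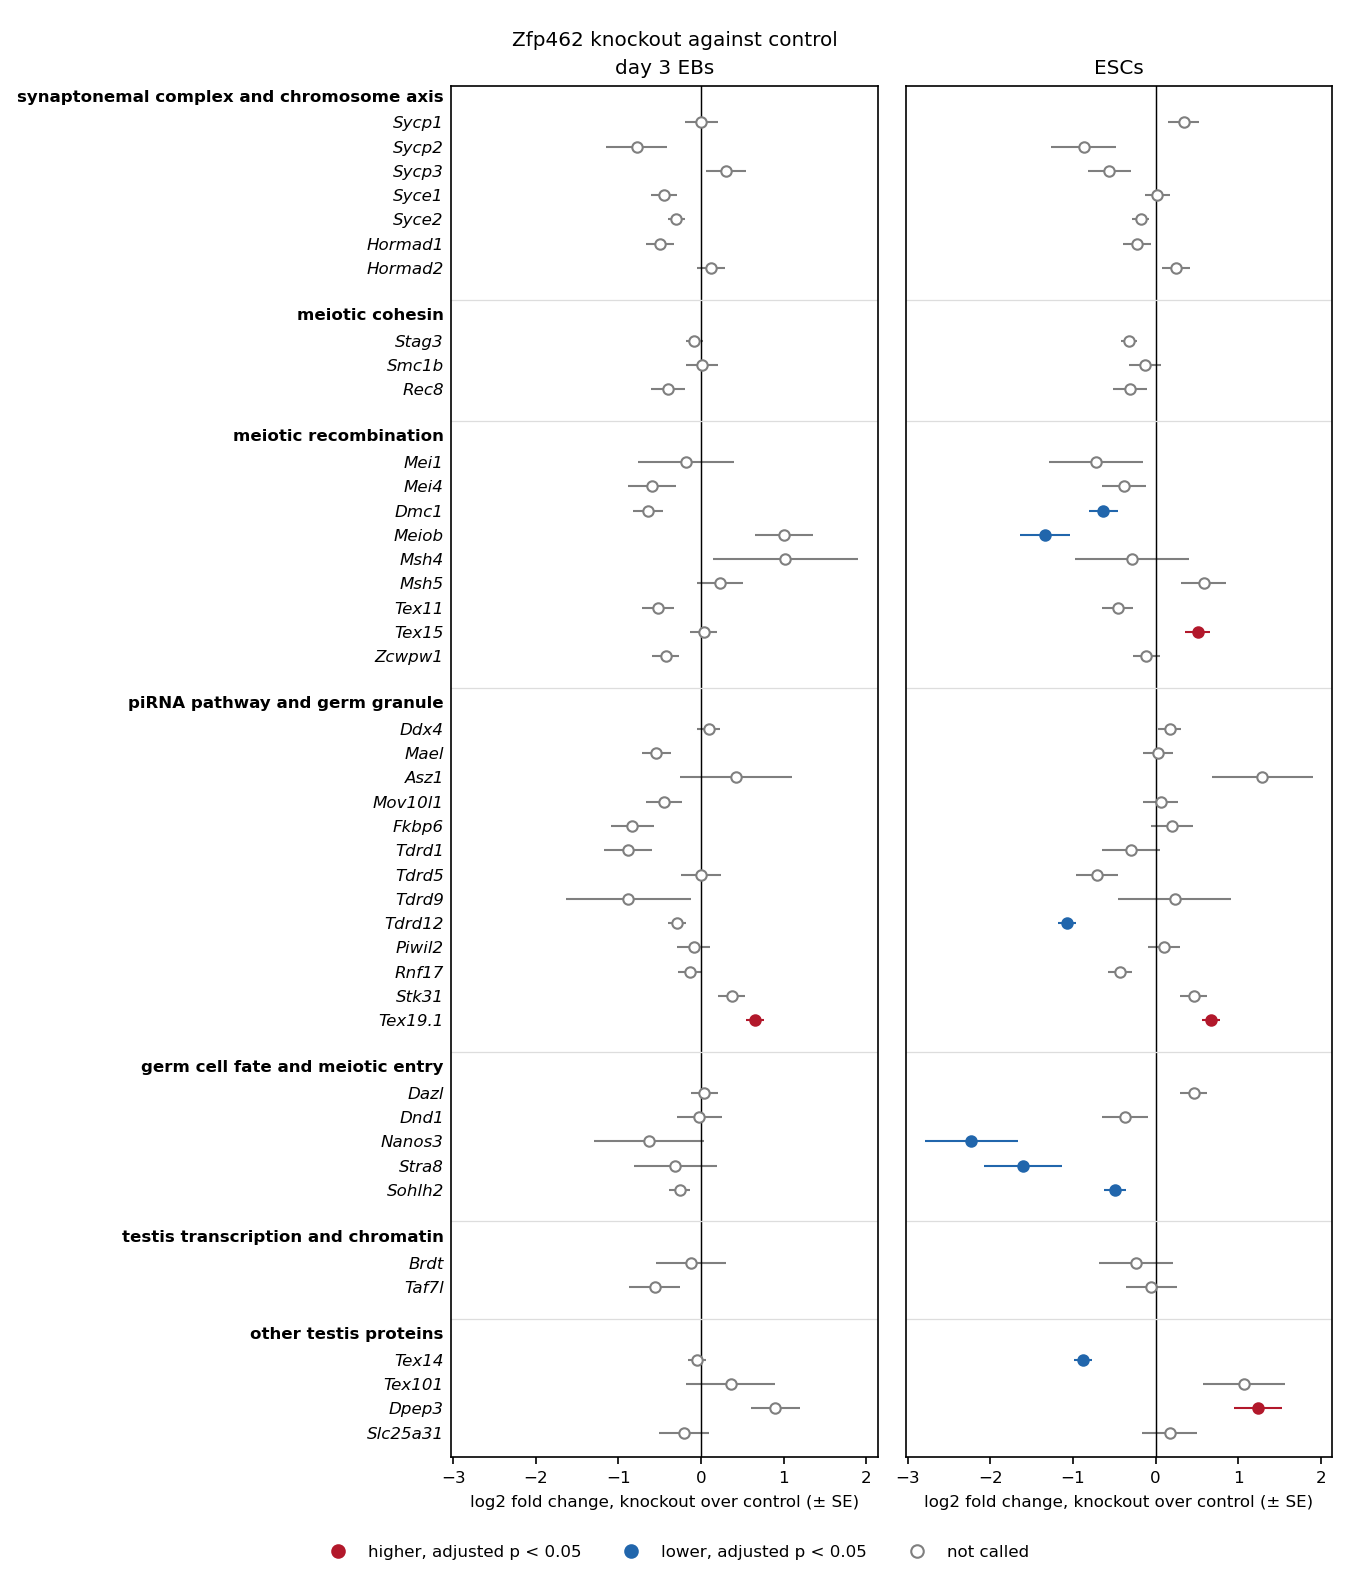
Log2 fold change of the knockout over control with its SE for the 43 tested genes by role, in day 3 EBs (left) and ESCs (right), on the same axis; filled points passed an adjusted p of 0.05. In ESCs 3 filled points lie to the right of 0 and 7 to the left, while in EBs only Tex19.1 is filled.

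**Figure D3:**
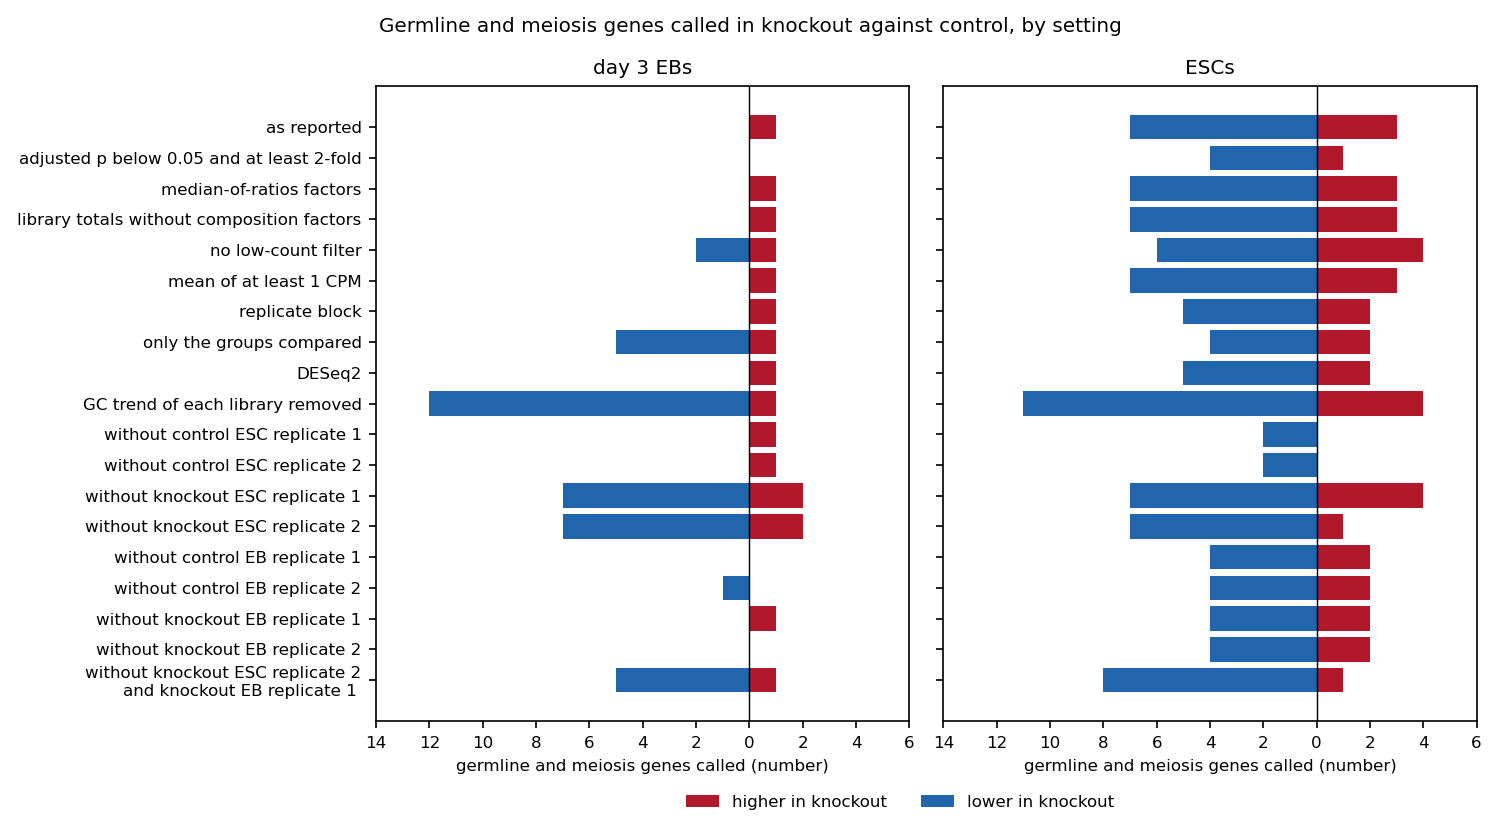
Number of germline and meiosis genes called higher (right of 0) or lower (left of 0) in the knockout under each setting, in day 3 EBs (left) and ESCs (right). EB counts run from 0 to 13, with 12 lower once the GC trend is removed, and ESC counts run from 2 to 15.

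The third comparison asked whether the knockout effect differed between stages. For 3 of the 43 genes it did, all in the direction of a less negative effect in EBs (6.98%, where 1.38% of all genes were called, 0.742% higher and 0.642% lower in EBs). Tex14, low in knockout ESCs as given above, had 38.9 and 39.6 CPM in knockout EBs, against 42.9 and 38.2 CPM in control EBs, and the effect in EBs exceeded that in ESCs by 0.84 ± 0.16 (log2, adjusted p = 0.0324). Tdrd12 had 60.3 and 55.4 CPM in knockout EBs, against 69.3 and 71.9 CPM in control EBs, a difference of effects of 0.78 ± 0.15 (adjusted p = 0.034). Meiob had 2.94 and 2.44 CPM in knockout EBs, against 1.13 and 1.57 CPM in control EBs, so its knockout libraries were the higher ones there and the lower ones in ESCs. Its difference of effects was 2.34 ± 0.46 (adjusted p = 0.0369). Meiob was not called with a filter at a mean of 1 CPM. None of the 3 was called with the replicate number as a block, where 0.549% of all genes were higher and 0.461% lower. None was called without any 1 of the libraries other than the knockout ESC ones, in fits that called few or none of all genes. Over the 43 genes, effects in EBs and ESCs, which share no library, had the same sign for 31 (72.1%, against 66.4% of all genes), with Spearman's rho of 0.36 across genes, against 0.433 for all genes. Genes are not independent replicates, and these are descriptions.

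The fourth comparison described the same genes over 3 days of differentiation in each genotype. In control cells 11 genes changed, 5 higher and 6 lower in EBs (25.6%, where 18.2% of all genes were called, 8.6% higher and 9.63% lower). Fitted on the control libraries alone, 16.7% of these genes were higher and 16.7% lower, near the 18.2% and 16.4% of all genes. Tex14 fell to 42.9 and 38.2 CPM in control EBs, against 85.5 and 95.1 CPM in control ESCs (log2 -1.15 ± 0.11, adjusted p = 7.65e-05). Meiob fell to 1.13 and 1.57 CPM, against 9.28 and 8.60 CPM in control ESCs (log2 -2.73 ± 0.33, adjusted p = 0.000362). Stag3, a cohesin subunit used in meiosis, fell to 76.2 and 74.0 CPM, against 118 and 113 CPM in control ESCs (log2 -0.62 ± 0.10, adjusted p = 0.00223). Tex15, Piwil2, the Piwi protein MILI, and Nanos3 also fell, by log2 -0.51, -0.94 and -2.15. Tdrd1 rose to 6.50 and 6.74 CPM in control EBs, against 1.63 and 1.78 CPM in control ESCs (log2 1.95 ± 0.31, adjusted p = 0.00216). Syce2 rose to 98.5 and 87.1 CPM, against 64.5 and 66.3 CPM in control ESCs (log2 0.51 ± 0.10, adjusted p = 0.00557), and Tex19.1 rose by 0.63 ± 0.11 (adjusted p = 0.0043). Mael and Slc25a31 rose as well, by 0.75 and 1.41.

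In knockout cells 12 genes changed, 6 in each direction (27.9%, where 15.3% of all genes were called, 8.23% higher and 7.11% lower). Tdrd12 rose to 60.3 and 55.4 CPM in knockout EBs, against 31.9 and 35.2 CPM in knockout ESCs (log2 0.79 ± 0.11, adjusted p = 0.00112), while in controls its change was 0.01 (adjusted p = 0.978). Sycp3 rose to 8.21 and 11.6 CPM, against 3.65 and 3.42 CPM in knockout ESCs (log2 1.48 ± 0.25, adjusted p = 0.00385). Tex15 fell to 17.3 and 17.4 CPM, against 30.3 and 38.6 CPM in knockout ESCs (log2 -0.99 ± 0.15, adjusted p = 0.00224). Piwil2 fell to 9.79 and 8.52 CPM, against 17.5 and 22.6 CPM (log2 -1.13 ± 0.19, adjusted p = 0.0042), and Syce1, of the central element, to 12.4 and 10.7 CPM, against 19.5 and 21 CPM (log2 -0.81 ± 0.16, adjusted p = 0.00753). Tex19.1 rose by 0.61 ± 0.11 (adjusted p = 0.00614), Syce2, Tdrd1 and Tdrd5 rose by 0.39, 1.37 and 1.16, and Sycp1, Stag3 and Dazl fell by 0.71, 0.38 and 0.73 on the log2 scale. Only the genes with a difference of effects named above were shown to change differently between genotypes: for the rest, a call in one genotype and not in the other does not show a difference. These 2 comparisons share their libraries with the knockout comparisons.

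**Figure D4:**
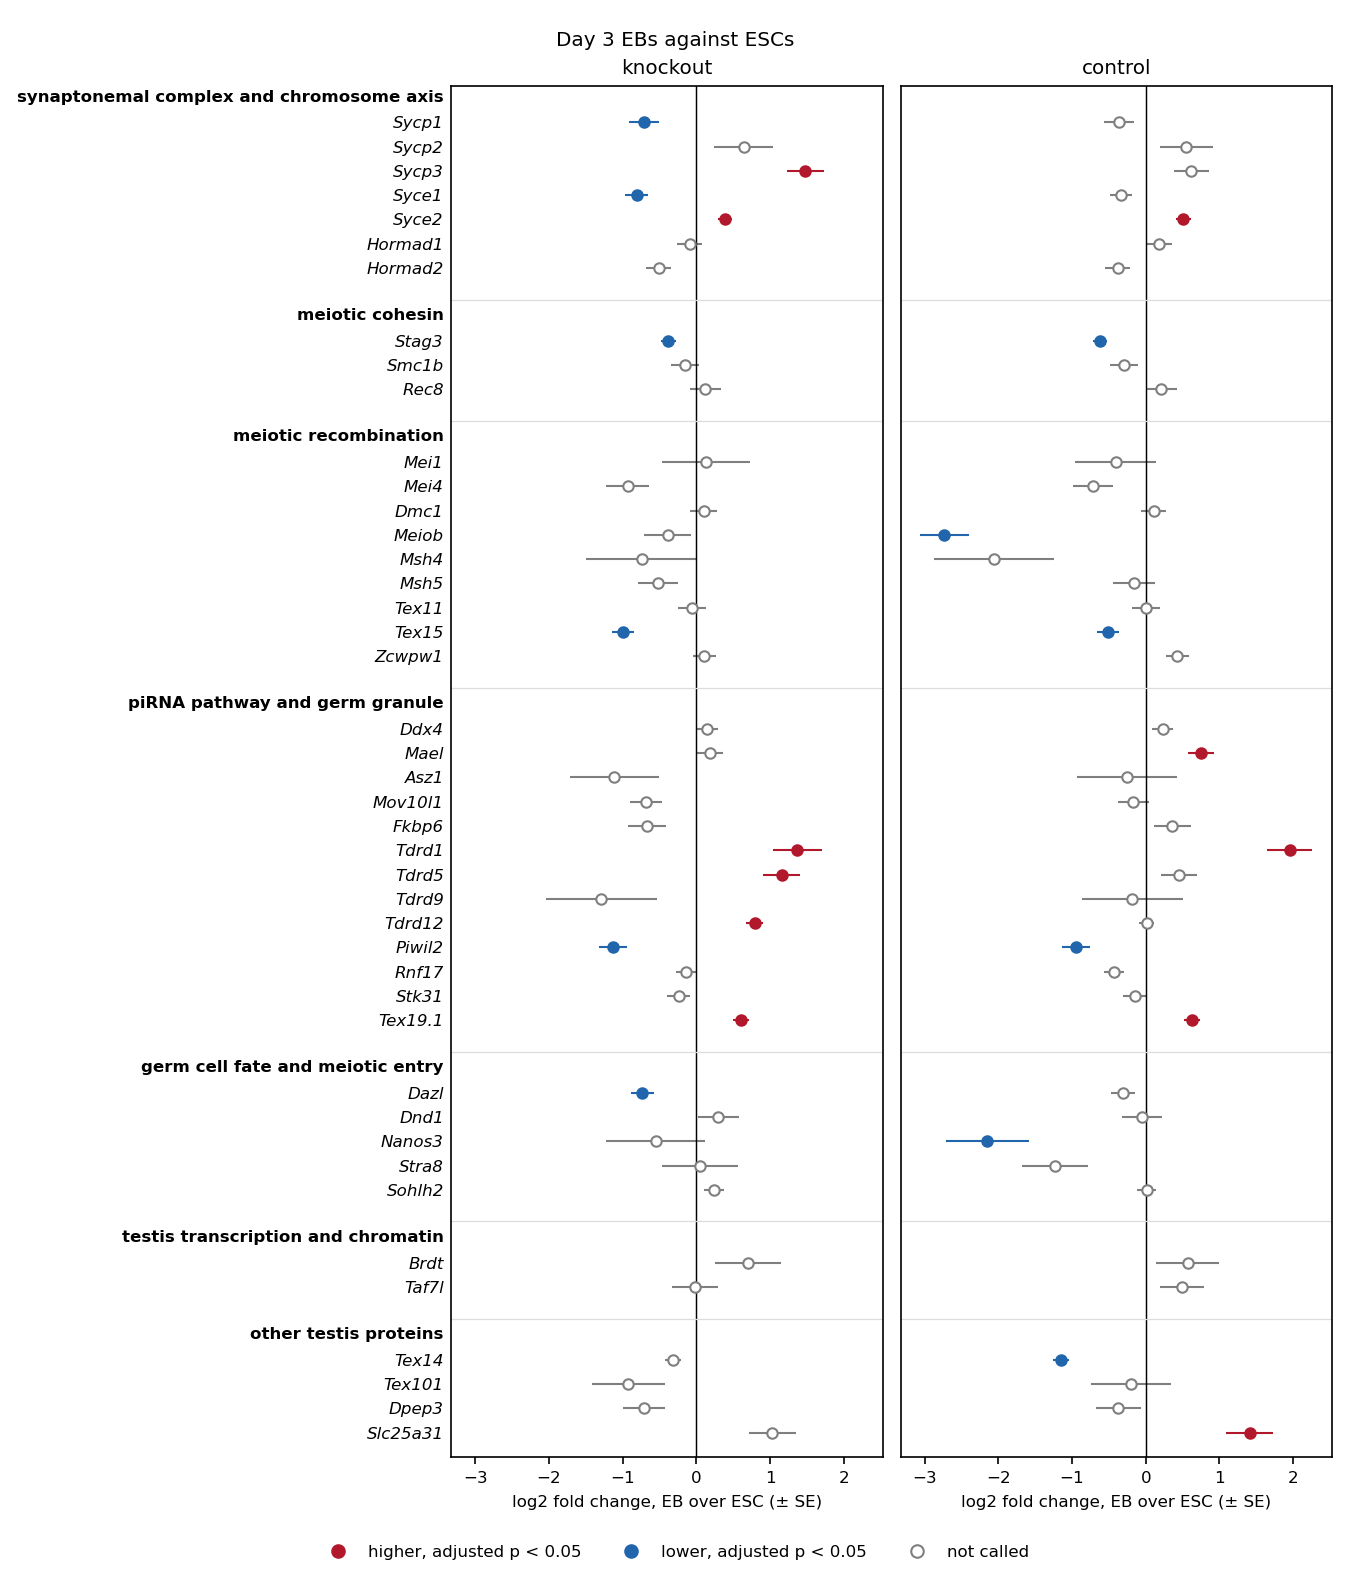
Log2 fold change of day 3 EBs over ESCs with its SE for the 43 tested genes by role, in knockout (left) and control (right) cells, on the same axis; filled points passed an adjusted p of 0.05. Syce2, Tdrd1 and Tex19.1 are higher and Stag3, Tex15 and Piwil2 lower in both panels, while Meiob and Tex14 are filled only in controls and Tdrd12 only in the knockout.

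The genes were also described by whether a promoter window holds an E-box. Of the 15 genes with CACGTG, 0 were called in knockout ESCs by edgeR and 0 by DESeq2, and 2 (Stag3 and Stk31) had an unadjusted p below 0.05. Their log2 fold changes ran from -0.56 to 0.46, with a median of 0.03. Of the 22 genes with a window but no CACGTG, 2 were higher and 6 lower, with a median of -0.30. Over all tested protein-coding genes, 16.5% of the 1280 with CACGTG and 15.8% of the 9853 without it were called in ESCs. The split was made after the values were known, and the difference between the sets was not tested. The counts moved with the setting: with the GC trend removed Syce2 and Stag3 were called lower, and without either knockout ESC library Stag3 was. In EBs 0 of the 15 and 1 of the 22 were called, with medians of -0.30 and -0.12, where 6.56% and 6.82% of all tested protein-coding genes with and without CACGTG were. There, with the GC trend removed, 5 of the 15 genes with CACGTG were called lower (Syce2, Hormad1, Mael, Fkbp6 and Tdrd1). In the same fit 6 of the 22 without it were lower, where 13.1% of all genes were. Windows are annotated starts: those of Nanos3, Tex101, Mei1 and Msh4 lie over 1000 bases from the start of the gene in the count table's annotation. A match is not a bound site.

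**Figure D5:**
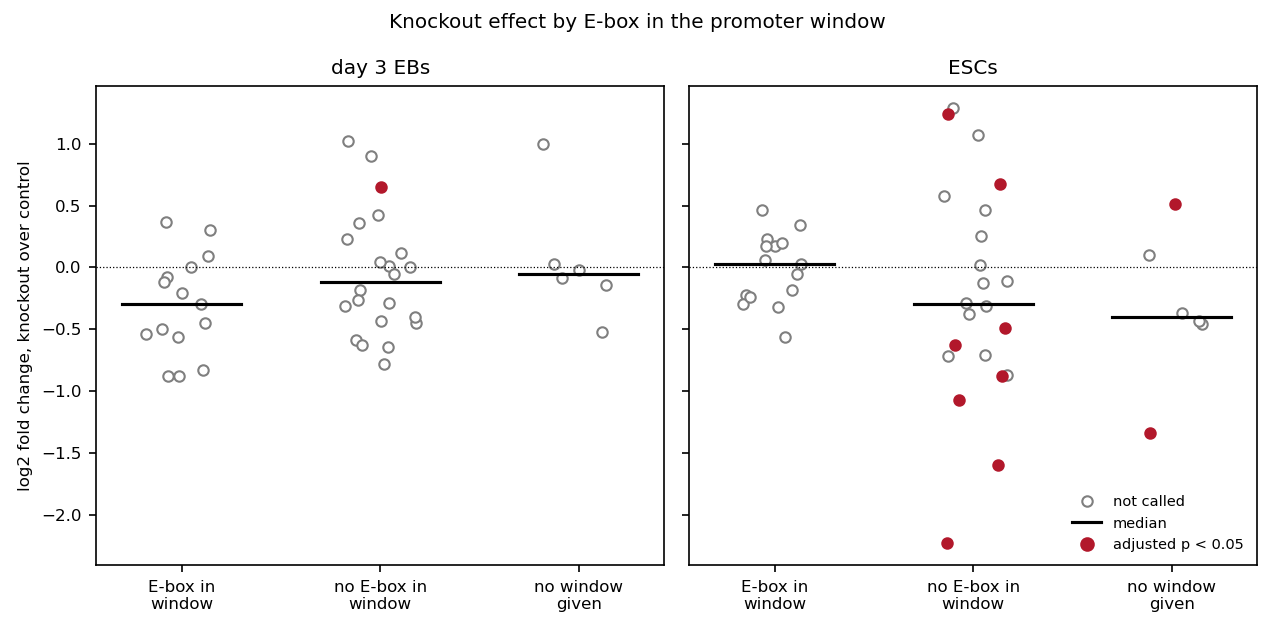
Log2 fold change of the knockout over control for genes with CACGTG in a promoter window, without it, or without a window, in day 3 EBs (left) and ESCs (right); lines are medians and filled points passed an adjusted p of 0.05. In ESCs the 15 genes with CACGTG lie between -0.56 and 0.46 and none is filled, whereas the 22 without reach from -2.23 to 1.29.

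Other genes of the same pathways were described from fixed lists. Of 32 further meiosis and germ cell genes, 26 were tested: in knockout ESCs Prdm9, which sets recombination sites, and Tdrd7 were higher (log2 1.28 and 0.94, adjusted p = 0.00977 and 0.039), and Meioc, which extends meiotic prophase, and Piwil4, the Piwi protein MIWI2, were lower (-0.74 and -1.76, adjusted p = 0.00153 and 0.00204). In knockout EBs Meioc was lower (-0.54, adjusted p = 0.0183), and the other 25 were not called. In ESCs 2 of the 26 were thus higher and 2 lower, where 8.3% of all genes were higher and 6.2% lower. In EBs 1 was lower and 0 higher, where 2.04% of all genes were lower and 4.75% higher. The median of the 26 was -0.11 in ESCs and 0.02 in EBs, against -0.03 and 0.0 for all genes. Piwil4 had 2.70 and 1.97 CPM in knockout ESCs, against 7.74 and 8.11 CPM in control ESCs.

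Factors of primordial germ cells, several of which ESCs also use, fell in ESCs: 6 of 10 were lower and none higher. Of all genes, 6.2% were lower and 8.3% higher. The median of the 10 was -0.70, against -0.03 for all genes. The smallest adjusted p belonged to Tfap2c (-2.02, adjusted p = 1.94e-05), Lin28a (-0.97, 5.73e-05), Ifitm3 (-1.02, 0.000154) and Prdm1 (-1.22, 0.000338). In EBs Lin28a (-0.56, adjusted p = 0.00311) and Ifitm3 (-0.42, 0.0373) were lower and Prdm14 higher (0.81, 0.0489), where 2.04% of all genes were lower and 4.75% higher. Pluripotency markers moved beside them: 4 of 8 were lower in knockout ESCs, where 6.2% of all genes were. They were Sox2 (-1.08, adjusted p = 0.000466), Esrrb (-0.75, 0.00139), Pou5f1 (-0.63, 0.00214) and Zfp42 (-0.50, 0.00492). In knockout EBs Zfp42 (0.44, 0.0204) and Nanog (0.41, 0.038) were higher, where 4.75% of all genes were. The part of these factors and markers in the changes of the germline genes was not tested.

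Of 14 PRC1.6 components, 2 were called in knockout ESCs, where 14.5% of all genes were. Of 13 factors tied to DNA or H3K9 methylation, erasers of DNA methylation such as Tet2 among them, 4 were called there. In knockout EBs 0 and 1 were called, where 6.8% of all genes were. Of the 14 PRC1.6 components, Wdr5 (-0.38, adjusted p = 0.0213) and Pcgf6 (-0.34, adjusted p = 0.0353) were lower in knockout ESCs. In knockout EBs edgeR called 0, with an unadjusted p below 0.05 for Cbx3, E2f6 and Tfdp1. E2f6 itself had 22.3 and 24.0 CPM in knockout ESCs, against 25.2 and 20.3 CPM in control ESCs. Of the 13 methylation factors, Suv39h1 (0.64, adjusted p = 0.00498) and Dnmt3b (0.43, 0.00672) were higher in knockout ESCs, and Tet2 (-0.55, 0.0158) and Suv39h2 (-0.43, 0.0362) were lower. In knockout EBs Dnmt3b was lower (-0.76, adjusted p = 0.000506), with 782 and 786 CPM, against 1261 and 1388 CPM in control EBs.

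Markers of other states moved with the genotype. All 8 markers of 2-cell-like cells, a rare ESC state that resembles the early embryo, were higher in both stages, summing to 145 and 166 CPM in knockout EBs, against 22.5 and 27.1 CPM in control EBs, and to 306 and 400 CPM in knockout ESCs, against 82.1 and 88.7 CPM in control ESCs. The smallest adjusted p in ESCs were those of Usp17la, Tmem92, Zscan4d and Tcstv3 (log2 2.77, 2.15, 2.08 and 2.22), and in EBs those of Usp17la, Tmem92, Zscan4d and Zscan4c (3.14, 2.75, 2.70 and 2.33), several of them members of gene families with near copies. Of 6 tested genes that respond to retinoic acid, the inducer of Stra8, Stra6 and Cyp26a1 were higher in knockout ESCs (3.04 and 1.30, adjusted p = 1.94e-05 and 0.000799) and Cyp26a1 in knockout EBs (0.66, adjusted p = 0.035). Of 7 tested liver markers, Fabp1 was called higher in knockout EBs, where it had 24.8 and 0.913 CPM, against 0.0663 and 0.0784 CPM in control EBs. Of all genes, 8.3% were called higher in knockout ESCs and 4.75% in knockout EBs. The part of these states in the values of the germline genes was not tested.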

How the data were processed

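RNA-seq counts per gene were analysed for 8 mouse libraries, 2 in each of 4 groups named by the labels. The authors deposited raw whole-number counts, and per the submitters' processing notes these came from HISAT2 and featureCounts on mm10, with DESeq2 also named and no versions or strand setting. Genes were tested with edgeR 4.0.16 (R 4.3.3, limma 3.58.1) by its quasi-likelihood test on 17125 genes that passed filterByExpr (minimum count 10), with TMM factors, 1 mean per group and Benjamini-Hochberg adjustment over all genes. The biological coefficient of variation was 0.132. Library totals of 12119763 to 16228426 counts set the precision. CPM values use each library's total over the genes tested, scaled by its TMM factor.

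The members and gene lists were chosen with earlier results of these data known. Named with values per library were members called in either knockout comparison (up to 14 each), up to 6 per differentiation comparison by smallest adjusted p, and Dazl, Ddx4, Mael, Sycp3, Stra8 and Rec8. Members called in the difference of knockout effects, up to 4 called genes of each other list per knockout comparison, and Zfp462 were also named. Genes given beyond that rule were chosen after their values were seen.

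Alternatives were other scaling factors, other filters, DESeq2 1.42.0, removal of each library's GC trend, a 2-fold minimum, a block for the replicate number, fits on the groups compared alone, and each library left out. Leaving out knockout ESC replicate 2 and knockout EB replicate 1 together was added after seeing the data. On simulated counts, edgeR recovered 64.9% of genes changed by 1 and 83.0% of those changed by 2 on the log2 scale for the ESC comparison (16611 genes). For the EB comparison (16616 genes) it recovered 63.6% and 84.5%. It made 10 and 7 false calls. Only 97 and 100 genes were changed for ESCs, and 99 and 97 for EBs, a smaller share than was called in the data. No GC or liver outlier library was simulated, so these rates need not hold for the data. Promoter windows come from RefSeq on GRCm38.p6.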

Additional observations from a re-analysis of the deposited data

Results flagged for a closer look

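For 3 germline and meiosis genes the knockout effect differed between day 3 EBs and ESCs, by edgeR's test of the difference itself. The effect in EBs exceeded that in ESCs by 0.78 on the log2 scale for Tdrd12, by 0.84 for Tex14 and by 2.34 for Meiob. In ESCs all 3 were lower in both knockout libraries, and in EBs both knockout libraries of Meiob were higher. All 3 calls were lost with the replicate block, where 0.549% of all genes were higher and 0.461% lower. Dropping any 1 of the 6 libraries other than the knockout ESC ones also lost them, where few or none of all genes were called. Meiob was also lost with a filter at a mean of 1 CPM. Every fit that drops a library rests on 1 library for its group, so calls kept there are not read as support for these differences. Over the 16 alternative fits the difference ran from 0.72 to 0.86 for Tdrd12, 0.76 to 0.92 for Tex14 and 2.05 to 2.73 for Meiob.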

How the results depend on the processing

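In ESCs, where 10 genes were called in the knockout, 5 were called with a 2-fold minimum and 6 with only the groups compared. That last fit called 4.65% of these genes higher and 9.3% lower, where 5.88% and 2.52% of all genes were. No share of all genes is given for the 2-fold minimum. Leaving out each library in turn gave 2 to 11 calls, and medians of -0.20 to -0.08. In EBs, where 1 was called, a 2-fold minimum gave 0 and removal of the GC trend 13 (shares given above). No filter gave 3 calls, 2.27% higher and 4.55% lower, where 4.5% and 2.04% of all genes were. Only the groups compared gave 6 calls, 2.44% higher and 12.2% lower, where 9.06% and 7.94% of all genes were. Leaving out each library gave 0 to 9 calls. The EB median was -0.25 with the GC trend removed, where that of all genes was -0.10, -0.27 without both doubtful libraries, and -0.27 to -0.06 with each library left out. Between EBs and ESCs, a 2-fold minimum gave 4 calls in the knockout and 5 in controls, and only the groups compared gave 4 in the knockout. Leaving out each library gave 4 to 17 calls in the knockout (medians -0.25 to -0.06) and 4 to 13 in controls (medians -0.21 to -0.03). The control median was -0.07 with a mean of at least 1 CPM and -0.07 with the GC trend removed. For the difference of knockout effects a 2-fold minimum gave 1 call. The replicate block gave 0, where 0.549% of all genes were higher and 0.461% lower. The number called moved with the library left out there too.

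The sign turned for uncalled genes near 0. Mael in ESCs was at -0.06 with the GC trend removed and at -0.10 without both doubtful libraries, where Rec8 was at 0.02, and it ran from -0.16 (control ESC replicate 2 dropped) to 0.22 (control ESC replicate 1 dropped), with -0.12 when knockout ESC replicate 2 was dropped. In EBs Dazl was at -0.03 and Ddx4 at -0.00 with the GC trend removed, and Dazl at -0.06 without both doubtful libraries, running from -0.06 (control EB replicate 1 or knockout EB replicate 1 dropped) to 0.15 (control EB replicate 2 dropped). Over single genes, 515 values kept their direction and call, 89 lost the call and 12 gained it. The cause was not tested.

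Same-numbered libraries did not deviate together over all genes tested (correlations of -0.089 to 0.023 between groups), so no pairing by number was seen. A small shift shared by same-numbered libraries could go unseen in these correlations. With the replicate block 7 genes were called in knockout ESCs, where 7.56% of all genes were higher and 5.76% lower. In knockout EBs it gave 1 call, where 4.05% of all genes were higher and 1.59% lower. With 2 libraries a group, genes of about 10 counts have little precision.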
